A study of Mus musculus with 6 samples.

Results

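The genes described here are Mef2a, Mef2c, Mef2d, Srf and the long noncoding gene Gm26803, 5 of 37411 gene rows in the deposited counts, chosen by symbol. Mef2b, the remaining MEF2 gene, had 2 counts in 1 forskolin library and 0 in the other 5. RNA was sequenced from primary hippocampal neurons of CD-1 IGS mice, cultured from newborn P0 pups and taken at day 16 in vitro (DIV 16). The 3 control libraries (1, 2 and 3) came from cells given solvent (DMSO) for 30 min, and the 3 forskolin libraries (4, 5 and 6) from cells given 50 µM forskolin for as long, an agent that activates adenylyl cyclase and so raises cyclic AMP. No genotype or allele differs between the groups, and the cells are a mixed culture of pups whose number and sex the labels do not give. Nothing in the labels says that the libraries came from separate cultures, so the spread between them may in part be technical. The members were picked with the forskolin against DMSO contrast already known. Their fold changes are therefore given as a description, and whether edgeR called a member is stated without being read as evidence.

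MEF2 proteins and serum response factor (SRF) share the MADS box, a DNA-binding and dimerisation domain. MEF2 factors are held in check by class IIa histone deacetylases and released by calcium and kinase signals, and in neurons they control activity-dependent genes that restrain synapse number. SRF binds CArG boxes with either ternary complex factors such as Elk1, which couple it to the immediate early genes, or myocardin-related factors such as Mkl1 and Mkl2, which couple it to actin genes. Both families can act through changes in the activity of protein that is already there, which was not measured here.

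RefSeq promoter windows (GRCm38.p6, 250 bases before to 50 bases after the annotated start) were found for 4 of the 5 genes. The windows of Srf and Mef2a are shown because they hold binding motifs of the very families the genes belong to, and that of Mef2d as a window with neither kind of motif. Capitals mark CArG boxes in Srf and the MEF2 site in Mef2a. The first exon of Gm26803, read from the GENCODE M21 transcript, is shown as the identity of the least known of the genes and has no capitals.
Srf, chr17:46556113-46556412, minus strand: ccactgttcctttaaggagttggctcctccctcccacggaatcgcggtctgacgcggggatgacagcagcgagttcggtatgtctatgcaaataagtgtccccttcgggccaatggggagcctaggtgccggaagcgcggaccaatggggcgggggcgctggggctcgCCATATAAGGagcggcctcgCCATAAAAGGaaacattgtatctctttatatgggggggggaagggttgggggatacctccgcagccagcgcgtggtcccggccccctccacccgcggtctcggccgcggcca
Mef2a, chr7:67372809-67373108, minus strand: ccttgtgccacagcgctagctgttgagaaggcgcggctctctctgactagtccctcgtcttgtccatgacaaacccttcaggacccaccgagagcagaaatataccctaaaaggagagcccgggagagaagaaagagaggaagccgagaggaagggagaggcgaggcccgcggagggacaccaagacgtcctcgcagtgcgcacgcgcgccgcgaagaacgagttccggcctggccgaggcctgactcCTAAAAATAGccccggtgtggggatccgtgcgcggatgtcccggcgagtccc
Mef2d, chr3:88142122-88142421, plus strand: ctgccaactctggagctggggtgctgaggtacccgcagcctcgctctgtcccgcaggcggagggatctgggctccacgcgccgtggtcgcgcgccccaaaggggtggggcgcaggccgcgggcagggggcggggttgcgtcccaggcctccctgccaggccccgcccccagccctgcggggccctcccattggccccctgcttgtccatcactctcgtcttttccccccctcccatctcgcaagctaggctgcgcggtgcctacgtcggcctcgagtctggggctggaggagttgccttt
Gm26803 exon 1, chr13:83729492-83729582, minus strand: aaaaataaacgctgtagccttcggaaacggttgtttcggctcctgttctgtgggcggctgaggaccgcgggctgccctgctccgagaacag

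The Srf window holds 2 CArG boxes, CCATATAAGG and CCATAAAAGG, which begin at -82 and -62 from the annotated start. Among 32851 RefSeq windows of this length, 535 (1.63%) hold a CArG box on either strand, and 6 (0.0183%) hold it at 2 or more positions. The Mef2a window holds 1 MEF2 site, CTAAAAATAG, which begins at -2 and so spans the start; 3.19% of all windows hold such a site. No CArG box or MEF2 site was found in the Mef2d window or in any of the 3 windows of Mef2c. The cyclic AMP response element TGACGTCA was found in none of the windows of the 4 genes (1.79% of all windows hold it). Its shorter form TGACG, which the full element contains, was found only in Srf, once, at -201 (20.8% of all windows). Both strands were searched; a match is a description of letters and not of binding, and a missing match refers only to these windows. GC content was 63.3% in the Srf window, 62.3% in that of Mef2a and 72.0% in that of Mef2d.

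Total counts ranged from 28342764 to 47548379 per library, and mitochondrially encoded genes took from 14.7 to 34.6% of them. Across 16233 tested genes, edgeR's quasi-likelihood test called 245 at an adjusted p under 0.05 (1.51%), of which 28 were higher with forskolin (0.172%) and 217 lower (1.34%). Library 6 stood apart from libraries 4 and 5: without it 5698 genes were called (33.6% of those tested, 2796 higher and 2902 lower), and without library 1, 2, 3, 4 or 5 edgeR called 0, with from 1945 to 3216 genes at an unadjusted p under 0.05. DESeq2 called 796 higher (5.33%) and 979 lower (6.55%). The summed level of 12 microglia markers ranged from 23.0 to 35.3 CPM (counts brought to a common library size) with DMSO, against 227, 377 and 25.1 CPM in libraries 4, 5 and 6. For 14 neuron markers it was 4929 to 6250 CPM with DMSO and 3640, 3882 and 5867 CPM in libraries 4, 5 and 6. The sum hides a split: 6 of the 14 (Rbfox3, Tubb3, Slc17a7, Syp, Neurod2 and Camk2a) were below every DMSO library in all forskolin libraries. This includes library 6 and stands beside 16.2% of all tested genes. edgeR called Rbfox3 and Neurod2 lower (adjusted p = 0.0392 and 0.0371), beside 1.34% of all tested genes. With the GC trend removed their log2 fold changes went from -0.87 and -0.95 to -0.45 and -0.52, and neither was called. For 12 markers of the oligodendrocyte lineage the sums were 947 to 1024 CPM and 1212, 1660 and 767 CPM, in the same order, and for 10 astrocyte markers 7031 to 7746 CPM and 7744, 8583 and 6978 CPM. The astrocyte sum hides opposed genes: Aqp4 had 313, 212 and 289 CPM with DMSO and 675, 862 and 243 CPM with forskolin. Aldoc had 1694, 1856 and 1677 CPM with DMSO and 957, 944 and 1659 CPM with forskolin. Endothelial (6 genes) and mural (6 genes) markers summed to between 12.2 and 36.7 CPM in all libraries; Cldn5, Kcnj8 and Des were at 0 in at least 1 of them. The neuron markers that the label calls for were thus present throughout, beside abundant astrocyte markers.

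Srf was lower in every forskolin library than in every DMSO library, but this direction depended on how base composition was handled. Srf (chr17:46548329-46556175, minus strand, protein-coding) stood at 47.5, 47.3 and 44.9 CPM without forskolin (libraries 1, 2 and 3) and at 35.2, 37.8 and 29.4 CPM after it (libraries 4, 5 and 6). The DMSO libraries lay within 1.06-fold of each other, the tightest of the 5 genes, and library 6 was the lowest. Means were 46.6 ± 1.45 and 34.1 ± 4.33 CPM (SD, n = 3 each), and the fitted log2 fold change was -0.45 ± 0.12 (SE). The longest annotated Srf transcript has a GC content of 64.4%, higher than in 99.3% of tested genes, and across tested genes the log2 fold change fell with GC content (Spearman's rank correlation -0.51 over genes, which are not independent). With each library's trend on GC content removed, the log2 fold change of Srf was 0.36 ± 0.12 (SE), in the opposite direction, and 0.29 ± 0.10 (SE) when library 6 was left out as well.

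Mef2d, a MEF2 gene linked to neuronal survival, was also lower with forskolin in every library. Mef2d (chr3:88142372-88172086, plus strand) had 86.1, 101 and 94.8 CPM in libraries 1, 2 and 3 and 60.0, 61.1 and 76.7 CPM in libraries 4, 5 and 6. Libraries 4 and 5 were nearly equal, and library 6 lay between them and the DMSO libraries. Means were 93.8 ± 7.28 and 65.9 ± 9.35 CPM (SD, n = 3 each), a log2 fold change of -0.51 ± 0.14 (SE). Its transcript GC content is 55.0%, and removing the GC trend left the same direction at -0.30 ± 0.16 (SE). Over all 15 alternatives the log2 fold change of Mef2d stayed negative, between -0.65 and -0.30. Libraries 4 and 5 also had the lowest neuron marker sums; the part of cell composition in the Mef2d difference was not tested. In bulk RNA, fewer cells of a type and less RNA per cell cannot be told apart.

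Mef2a, a MEF2 gene expressed widely in brain, heart and muscle, overlapped between the groups. Mef2a (chr7:67231163-67372858, minus strand) had 53.9, 53.4 and 80.8 CPM in libraries 1, 2 and 3 and 68.6, 85.5 and 68.2 CPM in libraries 4, 5 and 6. DMSO library 3 lay above forskolin libraries 4 and 6. The log2 fold change was 0.24 ± 0.20 (SE), from means of 62.7 ± 15.7 and 74.1 ± 9.90 CPM (SD, n = 3 each), and -0.05 ± 0.12 (SE) with the GC trend removed; its transcript GC content is 42.0%.

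Mef2c, the MEF2 gene needed for hippocampal synapse development and also expressed by microglia, varied more among the DMSO libraries than between the groups. Mef2c (chr13:83504034-83667080, plus strand) had 47.8, 107 and 148 CPM in libraries 1, 2 and 3, a 3.09-fold range, and 65.1, 71.0 and 144 CPM in libraries 4, 5 and 6. Forskolin libraries 4 and 5 lay between DMSO libraries 1 and 2, whereas forskolin library 6 lay next to DMSO library 3. The means were 101 ± 50.3 and 93.3 ± 43.9 CPM (SD, n = 3 each), with a log2 fold change of -0.11 ± 0.46 (SE). Leaving out 1 library at a time moved that value from -0.58 (without library 6) to 0.26 (without library 3), and it was also above 0 without library 4 (0.09) and without library 5 (0.09). With the GC trend removed it was -0.41 ± 0.45 (SE), and -0.97 ± 0.35 (SE) when library 6 was left out as well. A change of Mef2c was not detectable beside this spread. Mef2c was lower in libraries 4 and 5, where microglia marker sums were higher and neuron marker sums lower, than in library 6. The part of cell composition in these differences was not tested.

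**Figure D1:**
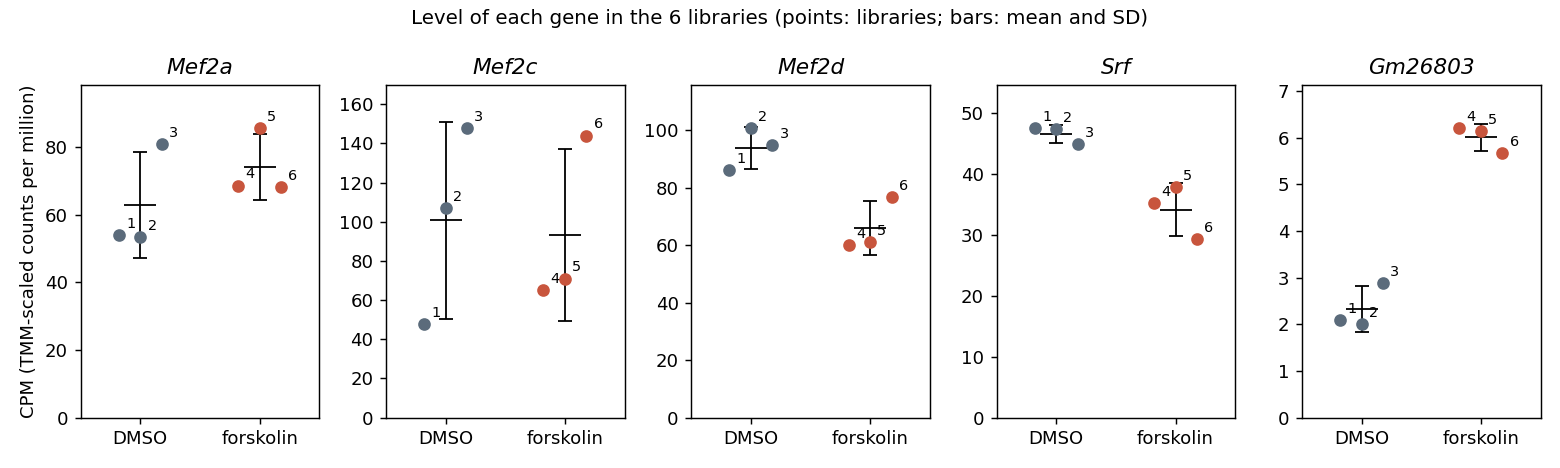
CPM of each gene (y axis, from 0) in DMSO libraries 1 to 3 and forskolin libraries 4 to 6, with each point 1 library, numbered, and bars showing the mean and SD of 3 libraries. The groups do not overlap for Mef2d, Srf and Gm26803, while Mef2c runs from 47.8 to 148 CPM within the DMSO group alone.

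Gm26803 was the gene of this set with the clearest separation: each forskolin library was at least 1.96-fold above the highest DMSO library. It is annotated as a long intergenic noncoding RNA (chr13:83723442-83729582, minus strand) with 2 exons and a transcript of 2011 bases. It had 67, 61 and 103 counts in libraries 1, 2 and 3 and 292, 209 and 190 counts in libraries 4, 5 and 6. On the scaled level these were 2.092, 2.002 and 2.889 CPM with DMSO and 6.20, 6.14 and 5.67 CPM with forskolin, so library 6, which differed from libraries 4 and 5 for many genes, lay close to them here. Means were 2.33 ± 0.488 and 6.01 ± 0.289 CPM (SD, n = 3 each), a 2.58-fold difference, or 1.36 ± 0.23 (SE) on the log2 scale. Over the 15 alternatives the log2 fold change was between 1.12 and 1.54, with the lowest value when the GC trend was removed. Of the 5 genes, only Gm26803 was among the genes edgeR called (1.51% of tested genes), and 1 gene lay wholly above and 2 wholly below the DMSO libraries (10.3% and 16.2% of tested genes, 26.5% in all). Nothing is read from these counts, since the contrast was known when the genes were picked. The edgeR call of Gm26803 was lost with RLE factors, with library size alone, with the GC trend removed and without library 1, 2, 3, 4 or 5.

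The nearest coding gene to Gm26803 is Mef2c, which ends 56362 bases away on the other strand, but a closer neighbour encloses it. Gm26803 lies inside the annotated span of the noncoding gene C130071C03Rik, on the opposite strand, and the exons of the 2 genes share 0 bases. C130071C03Rik, the host transcript of the neuronal microRNA gene Mir9-2, had 47.3, 49.2 and 65.7 CPM with DMSO and 77.9, 79.5 and 92.3 CPM with forskolin. All forskolin libraries were above all DMSO libraries, with a log2 fold change of 0.62 ± 0.16 (SE; edgeR adjusted p = 0.109). Gm33366, 5127 bases away on the strand of Gm26803, had 3.03, 3.90 and 6.84 CPM with DMSO and 9.75, 15.1 and 8.57 CPM with forskolin (log2 fold change 1.28 ± 0.37 (SE), edgeR adjusted p = 0.136). These 2 genes did not pass the threshold with 6 libraries and did without library 6 (edgeR adjusted p = 0.0415 and 0.0295) and with DESeq2 (adjusted p = 0.00952 and 0.0104). Their log2 fold changes became 0.34 and 0.74 once the GC trend was taken out. Mir9-2 itself was listed with 0 counts in all 6 libraries. Farther away, the noncoding gene 2810049E08Rik was also higher in all forskolin libraries (1.72, 1.18 and 1.35 CPM with DMSO, 2.63, 2.14 and 1.97 CPM with forskolin, log2 fold change 0.67), whereas Gm17750 overlapped (log2 fold change 0.33). Neither passed the edgeR threshold. No direction could be given for Mef2c beside its spread. The strand setting of the counting is not given in the sources used here, so unspliced C130071C03Rik reads across Gm26803 cannot be told apart from Gm26803.

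**Figure D2:**
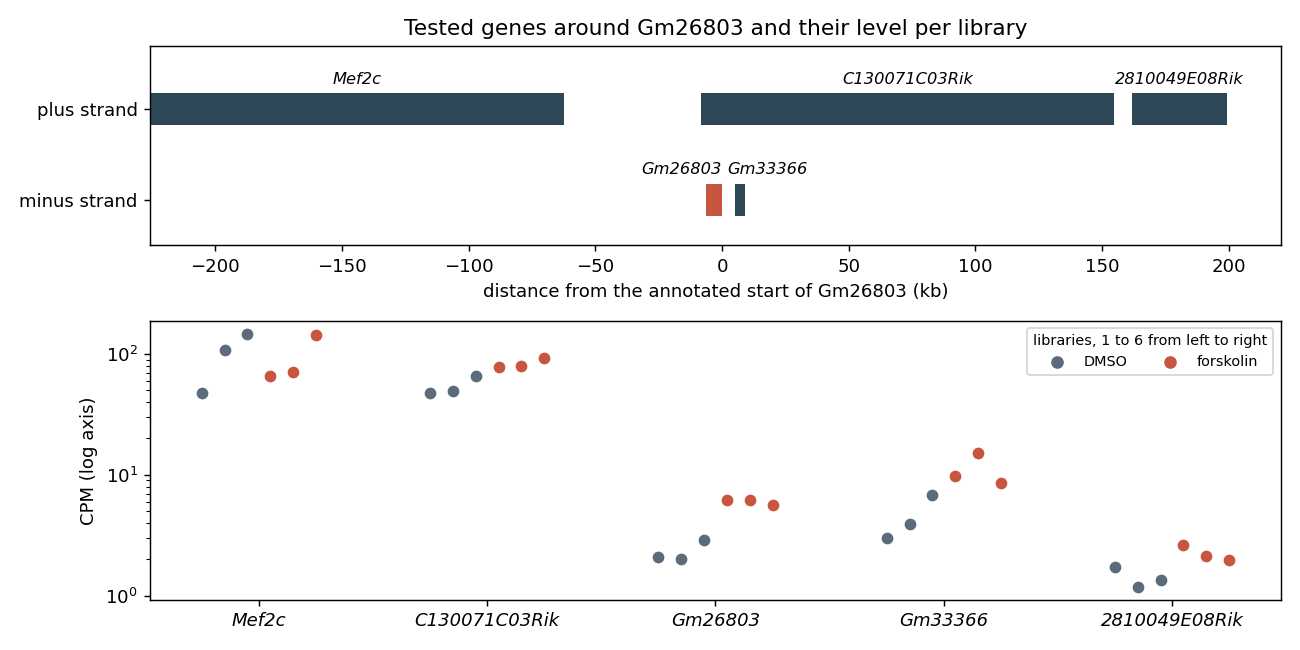
Top, annotated spans of the tested genes around Gm26803 by strand, against distance from its annotated start in kb; bottom, CPM of the same genes on a log axis, 1 point per library. The noncoding genes Gm26803, C130071C03Rik, Gm33366 and 2810049E08Rik are each higher in all 3 forskolin libraries than in all 3 DMSO libraries, while the libraries of Mef2c interleave.

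In the DMSO cultures, levels were compared between genes per length of the longest annotated transcript. Srf had 17.8 ± 0.553, Mef2d 17.4 ± 1.35, Mef2c 16.1 ± 8.01, Mef2a 11.3 ± 2.83 and Gm26803 1.16 ± 0.243 CPM per kb (SD, n = 3). The libraries of Srf and Mef2d overlapped, as did those of Mef2d and Mef2c and those of Mef2c and Mef2a, so that neighbours in this order did not differ beyond their spread. Every library of Mef2a lay below every library of Srf and of Mef2d. Gm26803 lay below every library of the others. When the summed length of all annotated exons was used instead, Srf (16.1) and Mef2d (15.7) lay above every library of Mef2c (6.42) and Mef2a (4.27 CPM per kb).

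Seen library by library, the 5 genes followed different patterns. Relative to the DMSO mean, Gm26803 had log2 ratios of 1.411, 1.397 and 1.284 in libraries 4, 5 and 6, and Srf had -0.40, -0.30 and -0.66. Mef2d had -0.64, -0.62 and -0.29, whereas Mef2c had -0.48, -0.36 and 0.66. Mef2a had 0.16, 0.48 and 0.15, against 0.39 in DMSO library 3. The median neuron marker had -0.81, -0.84 and 0.27, and the median microglia marker 4.40, 5.20 and -0.12. The neuron median of library 6 stands beside 6 of 14 neuron markers that were below every DMSO library in all forskolin libraries (16.2% of all tested genes). Library 6 thus sided with libraries 4 and 5 for Gm26803 and Srf, lay between the groups for Mef2d, and lay beside DMSO library 3 for Mef2c; for Mef2a it lay next to library 4, below DMSO library 3.

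**Figure D3:**
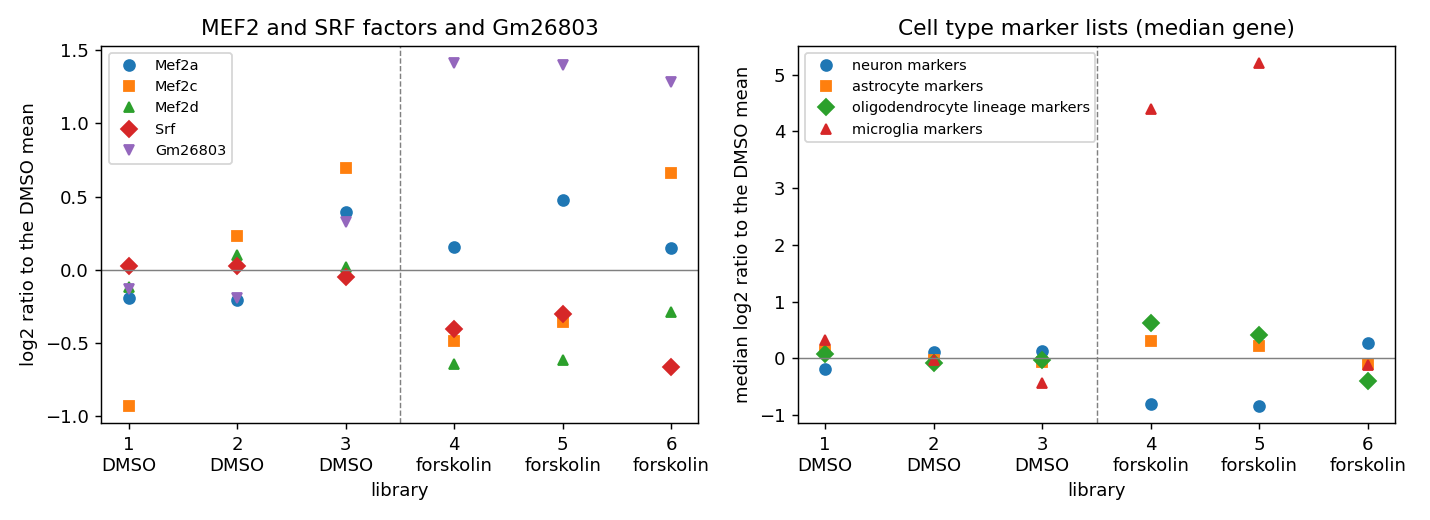
Left, log2 ratio of each gene to its DMSO mean in the 6 libraries; right, the median log2 ratio of 4 cell type marker lists, on a wider y axis. In library 6 the marker medians lie between -0.41 and 0.27, Mef2c is at 0.66 and Gm26803 at 1.28.

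Likeness to other genes was measured as the root mean square difference of log2 ratios to the DMSO mean over the 6 libraries, among 13445 tested genes averaging 50 or more counts. The profiles closest to Gm26803 were those of Gm37472 (0.11) and A330074H02Rik (0.17), both annotated as loci to be experimentally tested. Only 1 gene lay within 0.15 of Gm26803 and 2 within 0.15 of Mef2c, namely Snhg11 (0.12) and Lancl3 (0.14). By contrast 665 genes lay within 0.15 of Mef2d, 508 of Srf and 365 of Mef2a. These numbers also depend on count depth, on spread and on how many genes have a similar fold change. Gm26803 had 67, 61 and 103 counts with DMSO, and Mef2c varied 3.09-fold there. The numbers are therefore not a like measure of how particular each profile is. The closest to Mef2d were Rnf220 (0.03) and Dpysl5 (0.03), to Srf Ino80e (0.04) and Ctbp1 (0.04), and to Mef2a Epc2 (0.05) and Peli1 (0.05).

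The genes around these factors were described from 5 lists holding 87 genes, of which 83 were tested. edgeR called 6 of them higher and 0 lower at an adjusted p under 0.05, all of them target genes, where 0.172% of all tested genes were called higher and 1.34% lower. Of the 19 tested MEF2 partners and regulators 0 were called, with a median log2 fold change of -0.12 against 0.02 over all tested genes. Hdac4 and Hdac5, the deacetylases that bind MEF2 and repress its targets, had log2 fold changes of -0.33 ± 0.10 and -0.66 ± 0.16 (SE; edgeR adjusted p = 0.146 and 0.105). Hdac5 had 120, 124 and 123 CPM with DMSO and 91.4, 80.3 and 60.0 CPM with forskolin, so its groups did not overlap; with the GC trend removed its value was -0.20. Hdac9 (log2 fold change -0.02) and Hdac7 (0.16, and 0.64 with the GC trend removed) overlapped. The list's gene farthest from 0 went the other way: Sik1, a kinase that phosphorylates class IIa deacetylases, had 17.7, 18.5 and 15.4 CPM with DMSO and 61.7, 58.3 and 24.5 CPM with forskolin. Its log2 fold change was 1.49 ± 0.34 (SE; edgeR adjusted p = 0.0876, DESeq2 adjusted p = 0.000559). Of the 15 tested SRF cofactors and regulators 0 were called, with a median of -0.16. Without library 6, 8 genes of each of these lists were called, 7 of them lower and 1 higher in both, where 17.1% of all tested genes were called lower and 16.5% higher.

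Mkl1, the actin-sensing SRF coactivator, had the smallest adjusted p of the SRF cofactor list. It had 38.7, 44.9 and 45.6 CPM with DMSO and 29.3, 28.3 and 28.1 CPM with forskolin (log2 fold change -0.59 ± 0.11 (SE), edgeR adjusted p = 0.0595). Here library 6 matched libraries 4 and 5. Mkl1 passed with DESeq2 (adjusted p = 0.000449) and in edgeR without library 6 (adjusted p = 0.0107). Taking out the GC trend left a log2 fold change of -0.18. Rock1, a kinase that controls actin, was the gene of this list farthest from 0 and lay higher in all forskolin libraries (1.41 ± 0.36 (SE), edgeR adjusted p = 0.112, DESeq2 adjusted p = 0.00279). The Mkl1 relative Mkl2 overlapped between the groups, at -0.16. Of the ternary complex factors, Elk1 was lower in all forskolin libraries without passing (log2 fold change -0.31, edgeR adjusted p = 0.219), and Elk3 (0.20, edgeR adjusted p = 0.635) and Elk4 (0.09, edgeR adjusted p = 0.702) overlapped.

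Among SRF immediate early targets, 4 of 14 tested genes rose (edgeR adjusted p under 0.05) and 0 fell, beside 0.172% and 1.34% of all tested genes, and the median log2 fold change was 0.97. The 4 were Fosb and Fos, subunits of the AP-1 factor, the phosphatase gene Dusp1 and the zinc-finger factor gene Egr2. Fos had 186, 109 and 101 CPM with DMSO and 831, 902 and 448 CPM with forskolin. Its log2 fold change was 2.46 ± 0.36 (SE; edgeR adjusted p = 0.0375), beside 3.38 for Fosb (0.0402), 2.52 for Dusp1 (0.0276) and 1.74 for Egr2 (0.0431). For Fos, Fosb and Dusp1 library 6 was the lowest forskolin library, below libraries 4 and 5 with their high microglia marker sums. Egr2 had 20.9, 30.6 and 22.1 CPM in libraries 4, 5 and 6. The part of cell composition in these levels was not tested. Egr1 did not pass (0.63, edgeR adjusted p = 0.196), and DMSO library 1 lay above forskolin library 6. Its relative Egr3 had 10.1, 10.2 and 11.6 CPM with DMSO and 7.46, 9.49 and 6.84 CPM with forskolin, lower in all forskolin libraries without passing (-0.42, edgeR adjusted p = 0.235), and Egr4 overlapped (-0.28). Without library 6, 9 of the 14 passed higher and 0 lower, beside 16.5% and 17.1% of all tested genes. With the GC trend removed the list's median was 1.27.

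Of 16 MEF2 target genes, 2 rose (edgeR adjusted p under 0.05) and 0 fell, beside 0.172% and 1.34% of all tested genes, with a median of 0.23. Rgs2, a regulator of G protein signalling, had 42.7, 45.8 and 43.4 CPM with DMSO and 144, 133 and 121 CPM with forskolin (log2 fold change 1.59 ± 0.11 (SE), edgeR adjusted p = 0.0188). All 3 forskolin libraries lay far above the DMSO libraries, library 6 included. The transcription factor gene Klf4 had 2.436, 1.149 and 1.234 CPM with DMSO and 59.3, 52.2 and 11.6 CPM with forskolin, a log2 fold change of 4.67 ± 0.69 (SE; edgeR adjusted p = 0.0381). Library 6 lay above the DMSO libraries and far below libraries 4 and 5, the 2 with high microglia marker sums; the part of cell composition in its level was not tested. Nr4a1 (2.20, edgeR adjusted p = 0.0652) and Arc (1.69, edgeR adjusted p = 0.0660) lay above all DMSO libraries in all forskolin libraries without passing. With DESeq2 both passed (adjusted p = 5.38e-06 for Nr4a1 and 2.95e-05 for Arc). They also passed in edgeR without library 6 (adjusted p = 0.00478 and 0.0178). Without library 6, 5 of the 16 passed higher and 4 lower, beside 16.5% and 17.1% of all tested genes. DESeq2 called 4 higher and 1 lower, beside 5.33% and 6.55% of all genes it tested. The list's median changed sign when the GC trend was removed (-0.10).

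Of 19 SRF cytoskeletal targets 0 were called, with a median of 0.22. Vcl, encoding vinculin, had 58.0, 45.4 and 39.3 CPM with DMSO and 82.2, 48.7 and 35.7 CPM with forskolin (0.22, edgeR adjusted p = 0.694), and Actb, encoding cytoplasmic actin, differed by -0.21 in log2 terms (edgeR adjusted p = 0.507). Both overlapped between the groups. Without library 6, 6 were called higher and 3 lower, beside 16.5% and 17.1% of all tested genes; without library 4 the median was -0.07. The list nonetheless held the most promoter windows with a CArG box: 6 of 16 genes with a window (Actg1, Cnn2, Vcl, Myl9, Fhl1 and Filip1l), against 2 of 10 immediate early targets (Egr2 and Dusp5) and 1.81% of 27025 genes. These genes were listed as SRF targets, so the boxes are a property of the choice. Of these 8 genes, Egr2 was the one called. The same windows held TGACG in 9 of 10 immediate early, 7 of 13 MEF2 and 3 of 16 cytoskeletal targets, against 23.05% of genes. It was also in 7 of 17 MEF2 partners and 5 of 11 SRF cofactors, where edgeR called 0. All 6 called targets hold it, and Dusp1 alone of the listed genes holds TGACGTCA. The MEF2 sites of the MEF2 targets were in Jun and Klf2, which were not called. Which factor moved these genes was not tested.

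**Figure D4:**
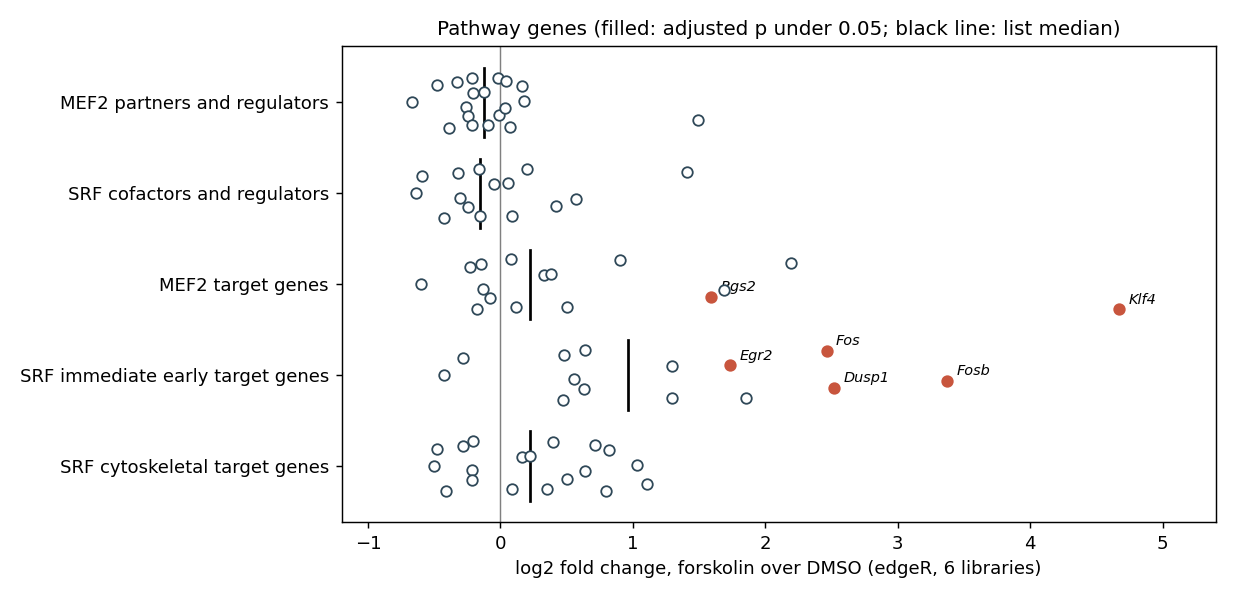
Log2 fold change, forskolin over DMSO, of the 83 tested genes in 5 lists (points; vertical offset has no meaning), filled where the edgeR adjusted p was under 0.05, with a black line at each list's median. The 6 filled points are target genes, and no partner or cofactor is filled.

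All 6 called targets also passed without library 6 and with DESeq2, and none was called by edgeR without library 1, 2, 3, 4 or 5. None was called with the GC trend removed either (0 genes called in all, with 1943 at an unadjusted p under 0.05). Their log2 fold changes were still 2.56 for Fos, 3.62 for Fosb, 2.68 for Dusp1, 1.82 for Egr2, 4.84 for Klf4 and 1.37 for Rgs2 in that fit. None of the 5 genes was among the 132 rows of the authors' deposited table, whose smallest log2 fold change is 1.501; that table is part of a longer one. It holds 6 of the 14 immediate early targets, 3 of the 16 MEF2 targets, 1 of the 21 MEF2 partners (Sik1), 0 of the 17 SRF cofactors and 0 of the 19 cytoskeletal targets.

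**Figure D5:**
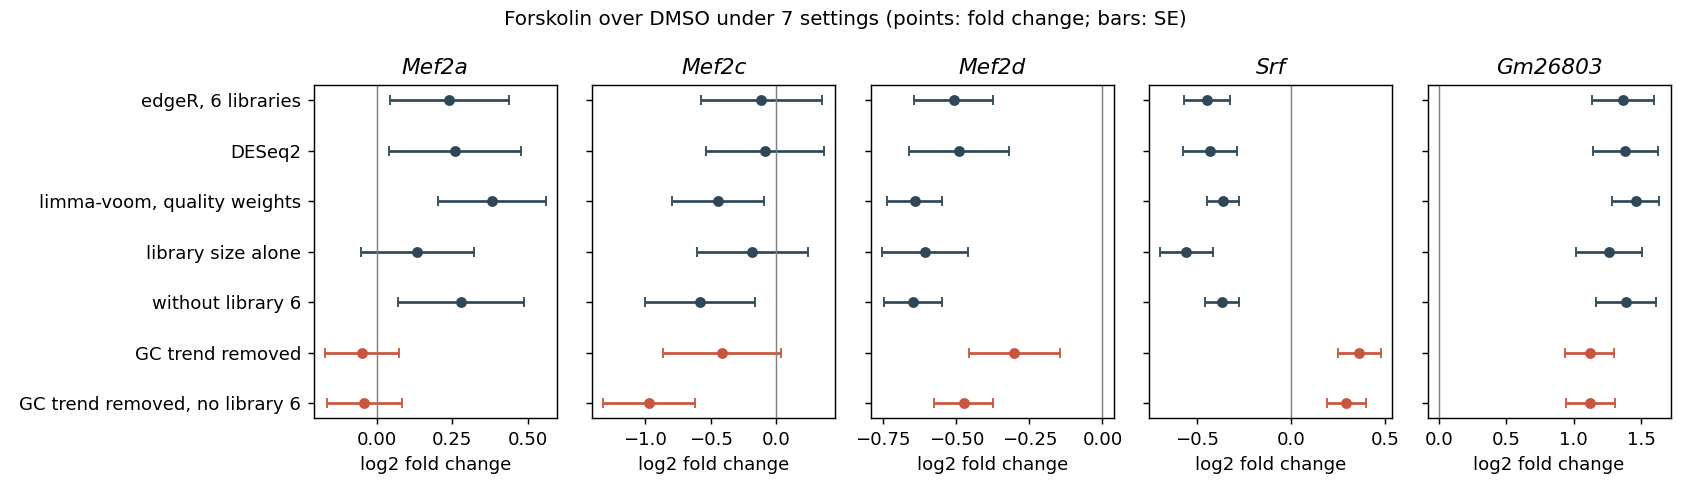
Log2 fold change of each gene, forskolin over DMSO, under 7 settings (points, with SE as bars; each panel has its own x axis). Srf lies at -0.45 with 6 libraries and at 0.36 with the GC trend removed, while Gm26803 stays between 1.12 and 1.46 in the settings drawn.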

How the data were processed

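RNA of 3 DMSO and 3 forskolin libraries had been extracted with Trizol and chloroform, per the labels' protocols. The authors deposited whole numbers per gene symbol, taken here as estimated counts; Salmon, DESeq and GRCm38 are named in the submitters' processing notes with no role, and the annotation and strand setting are not given in the sources used here. The authors' deposited table of results gives for each gene, as its header names them, the signal averaged over libraries, the log2 ratio and standard error, a score for the test, and the p-value before and after adjustment, all made by the authors; it was used for membership and its smallest fold change only. The counts are whole numbers that may be rounded estimates.

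Counts were tested with R 4.3.3 and edgeR 4.0.16 (filterByExpr with a minimum count of 10 and a minimum total of 15, TMM factors, glmQLFit, glmQLFTest, Benjamini-Hochberg over all 16233 tested genes, threshold 0.05); limma 3.58.1 and DESeq2 1.42.0 were alternatives. The procedure was tested on simulated data. CPM divides counts by the TMM-scaled sum over tested genes, and log2 ratios used a prior count of 2. The SE is the log2 fold change over the square root of F. The GC trend was a lowess fit per library (span 0.3) on the GC content of the longest GENCODE M21 transcript, known for 97.2% of tested genes. Members, lists, tests and alternatives were chosen with earlier results of these data known. The genes named were the 5 members, list genes past the threshold (at most 4 per list), 15 further list genes, the 3 tested genes nearest Gm26803 and the 2 closest profiles per member; Sik1, Rock1, Hdac7, Egr3, Egr4, Elk3, Mir9-2, 2810049E08Rik, Gm17750 and genes named for a motif or marker beyond these were named after their values were seen. Total counts per library were 28342764 to 47548379. Counting error was not separated from the spread between libraries, and is relatively largest for genes such as Gm26803 with few counts.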

Additional observations from a re-analysis of the deposited data

How the results depend on the processing

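With DESeq2 in place of edgeR, 1775 genes (11.9% of those it tested) were called in place of 245. Among them were 2 MEF2 partners, 3 SRF cofactors, 5 MEF2 targets and 1 cytoskeletal target. With limma-voom and library quality weights 6795 were called, with 8 MEF2 partners, 9 SRF cofactors, 9 MEF2 targets, 12 immediate early targets and 10 cytoskeletal targets. RLE factors gave 137 calls, library size alone called 1 SRF cofactor, and no low-count filter called 4 MEF2 targets. Removing the GC trend gave 0 calls in all, 0 MEF2 targets and 0 immediate early targets, while the log2 fold changes of the 6 called targets stayed between 1.37 (Rgs2) and 4.84 (Klf4) and the immediate early median was 1.27. It moved the log2 fold change of Mef2a to -0.049, Srf to 0.36, Mef2c to -0.41, Mef2d to -0.30 and Gm26803 to 1.12. Removing the GC trend and library 6 together, an alternative chosen after seeing the data, gave 5420 calls. The list counts were then 6 MEF2 partners, 5 SRF cofactors, 10 MEF2 targets, 11 immediate early and 9 cytoskeletal targets, with log2 fold changes of -0.040 for Mef2a, 0.29 for Srf, -0.97 for Mef2c and 1.12 for Gm26803. The cause of these moves was not tested.

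Leaving out 1 library at a time gave from 0 to 5698 calls, from 0 to 8 MEF2 partners and SRF cofactors, and from 0 to 9 MEF2, immediate early and cytoskeletal targets, with the higher value always without library 6. The log2 fold change ranged from 0.16 to 0.45 for Mef2a, -0.58 to 0.26 for Mef2c, -0.65 to -0.42 for Mef2d, -0.49 to -0.37 for Srf and 1.29 to 1.54 for Gm26803. DMSO levels per kb ranged from 9.69 to 12.2 for Mef2a, 12.3 to 20.3 for Mef2c, 16.7 to 18.1 for Mef2d, 17.6 to 18.1 for Srf and 1.02 to 1.24 for Gm26803. With the summed exon length they were 4.27 for Mef2a, 6.42 for Mef2c, 15.7 for Mef2d and 16.1 CPM per kb for Srf. Of 185 recomputed values, 129 moved by less than the limits used (1 SD between libraries, or 1.5 times for a count). The median over tested genes was 0.02 with TMM and -0.09 when scaled by library size only. No paired analysis was possible because the labels number the libraries 1 to 6 across both groups. The low counts of Gm26803 limit how finely its level can be given.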
